A study of Mus musculus with 27 samples.

Results

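Bicuculline raised a small set of short activity-regulated genes far more in cortical cells whose transcription was blocked with DRB than in cells blocked with triptolide. The quantity described here is the difference of 2 responses, each on the scale of log2(FPKM + 0.5), where FPKM is a fragment count scaled to the length of the gene model and the depth of the library. The first is bicuculline minus unstimulated under DRB, and the second is bicuculline minus unstimulated under triptolide in whole-cell RNA, so a positive difference is a larger response under DRB. Genes entered if 3 or more of the 12 libraries reached an FPKM of 1, which left 13814 of the 59489 entries of the table. Of these, 11809 carry a gene symbol and 2005 do not.

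All cells were wild-type mouse primary cortical cells, taken at embryonic day 16.5 and kept 14 days in culture. The DRB group with bicuculline had 50 µM DRB for 2 h and 20 µM bicuculline for 1 h, and its unstimulated group had the same DRB alone. The triptolide group with bicuculline had 1 µM triptolide for 3 h and 20 µM bicuculline for 1 h, and its unstimulated group had the same triptolide alone. Each of the 4 groups has 3 libraries, 12 of the 27 in the series. Every group carries an inhibitor, and cells without one are not analysed here. The inhibitor, its duration and the set of cultures change together between the experiments and cannot be told apart. The titles of the DRB libraries name no RNA fraction, and the order in which inhibitor and stimulus were given is not stated in the sources used here. The cultures are mixed: summed over their list, 14 neuron markers held 2638 to 3457 FPKM per library and 12 astrocyte markers 549 to 869 FPKM. In such RNA, fewer cells of a type and less RNA per cell cannot be told apart.

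Bicuculline blocks GABA-A receptors, so that inhibition fails and networks of cortical neurons fire in bursts. Calcium entering through NMDA receptors and voltage-gated channels then activates CaM kinases and the ERK cascade, and these act on CREB, serum response factor and MEF2 at the promoters of immediate early genes. DRB inhibits CDK9, the kinase that releases RNA polymerase II from its pause near the start of a gene into elongation. Triptolide acts one step earlier, on the XPB subunit of TFIIH, which opens the promoter DNA for initiation. Many immediate early genes are short and hold paused polymerase before a stimulus arrives.

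At a Benjamini-Hochberg adjusted p under 0.05 in limma, 19 genes had a larger response under DRB (0.138% of those tested) and 0 had a smaller one. At an unadjusted p under 0.05, 122 genes had a larger response (0.883%) and 188 a smaller one (1.36%). Libraries of the same number within an experiment deviated together from their group means. A second fit therefore takes that number as a block, and the main calls that it moves are given. The labels number the replicates and name no cultures. A culture here means the same-numbered libraries of an experiment, a pairing read from that shared deviation. With the block, 36 genes had a larger response (0.261%) and 2 a smaller one (0.0145%), and all 19 were among the 36. Within the DRB experiment alone 42 genes rose with bicuculline (0.304%) and 0 fell, and at an unadjusted p under 0.05 limma had 228 higher (1.65%) and 33 lower (0.239%). Within triptolide 0 rose (0.0%) and 1 fell (0.00724%), with 950 higher (6.88%) and 160 lower (1.16%) at an unadjusted p under 0.05 in limma. With the block 47 rose (0.34%) and 11 fell (0.0796%) under triptolide. Of the 19 genes, 18 also rose in the DRB experiment. In all 19 the responses of the 3 cultures under DRB lay above those of the 3 cultures under triptolide, as they did in 566 genes, 4.1% of those tested.

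**Figure D1:**
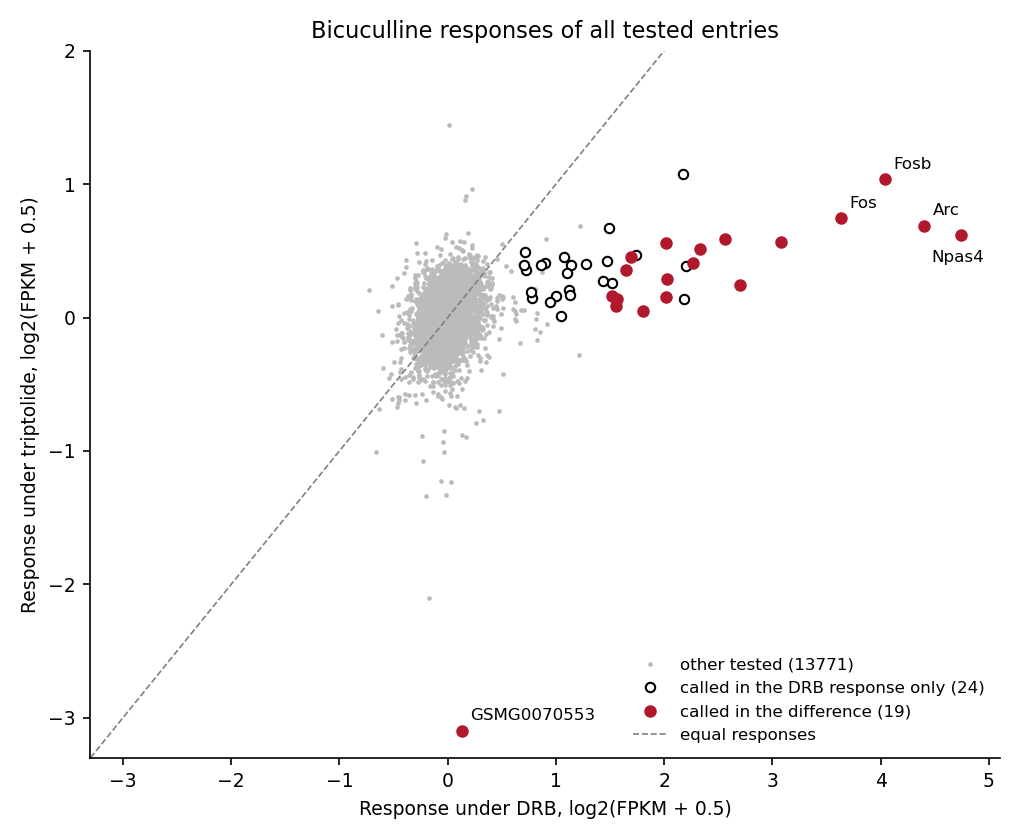
Each point is 1 tested entry, with its bicuculline response under DRB on the x axis and under triptolide on the y axis (log2 of FPKM + 0.5). The 19 entries with a called difference are filled red, 24 called in the DRB response only are open circles, the other 13771 are grey, and the dashed line marks equal responses. All but 1 of the red points lie far to the right and a little above 0 on the y axis.

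The genes that led the difference were Npas4, a neuronal transcription factor induced by calcium entry, and Arc, whose protein controls AMPA receptor trafficking at synapses. Npas4 (chr19:4984354-4990316, minus strand) had 133, 201 and 151 FPKM with bicuculline under DRB, against 3.57, 9.003 and 5.03 FPKM unstimulated. Under triptolide the same gene had 2.53, 1.73 and 2.96 FPKM with bicuculline, against 1.44, 1.07 and 1.59 FPKM unstimulated. The groups did not overlap in either experiment, but the bicuculline libraries under triptolide stayed below every unstimulated library under DRB. On the log2 scale the response of Npas4 was 4.74 ± 0.28 under DRB and 0.62 ± 0.28 under triptolide (SE), a difference of 4.12 ± 0.39 (limma adjusted p = 0.000858).

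Arc (chr15:74669081-74672572, minus strand) had 27.9, 31.9 and 29.2 FPKM with bicuculline under DRB, against 0.844, 0.971 and 0.958 FPKM unstimulated. With bicuculline under triptolide Arc had 2.58, 1.73 and 3.87 FPKM, against 1.502, 0.978 and 1.93 FPKM unstimulated, and here the groups overlapped. Unstimulated Arc levels did not differ past the test between the inhibitors (-0.44 for DRB minus triptolide, limma adjusted p = 0.219 over 27 libraries). The difference of its responses was 3.72 ± 0.31 (limma adjusted p = 0.000519). With the block, the triptolide responses of Npas4 and Arc passed the test as well, at adjusted p = 0.0479 and 0.0112. Of the 19 called entries, 5 passed in the triptolide response with the block and 1 without it.

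**Figure D2:**
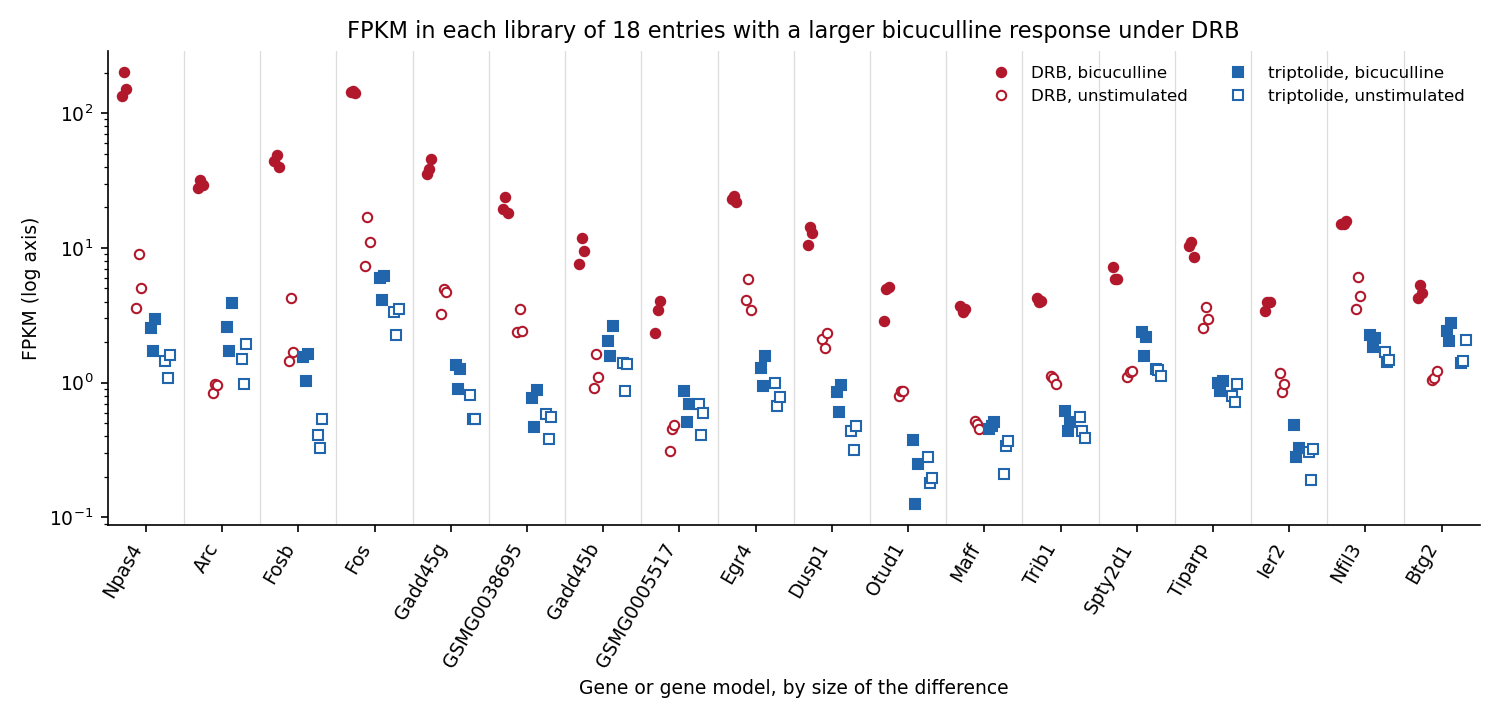
FPKM of 18 of the 19 called entries in each of the 12 libraries, on a log axis. Filled red circles are bicuculline under DRB, open red circles unstimulated under DRB, filled blue squares bicuculline under triptolide and open blue squares unstimulated under triptolide. In Npas4 the filled red circles lie at 133 to 201 FPKM and every other library lies at or below 9.003 FPKM.

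Among the immediate early transcription factors, Fos and Fosb code for the leucine zipper proteins that pair with Jun proteins to form AP-1. Fosb had 44.2, 49.0 and 40.1 FPKM with bicuculline under DRB, against 1.45, 4.24 and 1.70 FPKM unstimulated. Under triptolide it had 1.55, 1.04 and 1.63 FPKM with bicuculline, against 0.407, 0.329 and 0.534 FPKM unstimulated. Both pairs of groups were separate, and Fosb had the largest triptolide response of the 19 (1.04 ± 0.27 on the log2 scale). Its response under DRB was larger by 3.001 ± 0.38 (limma adjusted p = 0.00821).

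Fos had 145, 148 and 141 FPKM with bicuculline under DRB, against 7.33, 16.9 and 11.1 FPKM unstimulated. Under triptolide it had 5.94, 4.10 and 6.22 FPKM with bicuculline, against 3.34, 2.25 and 3.49 FPKM unstimulated. The 3 triptolide cultures gave responses of 0.75, 0.74 and 0.75, closer together than those of any other called gene in either experiment. Fos differed by 2.89 ± 0.35 (limma adjusted p = 0.00547). In Npas4, Fosb and Fos the highest unstimulated level under DRB was that of replicate 2.

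The first 250 bases before the RefSeq start of these 3 genes are shown because the genes moved together. They are given 5′ to 3′ on the strand of the gene (RefSeq, GRCm38.p6), with TGACG or its reverse complement CGTCA, the core of the cyclic AMP response element that CREB is known to bind, in capitals.
Npas4, chr19:4989972-4990221, minus strand: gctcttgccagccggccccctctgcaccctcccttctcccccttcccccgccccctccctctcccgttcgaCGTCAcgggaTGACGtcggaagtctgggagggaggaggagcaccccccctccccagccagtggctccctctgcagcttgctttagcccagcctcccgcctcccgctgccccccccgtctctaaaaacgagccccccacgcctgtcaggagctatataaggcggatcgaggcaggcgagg
Fos, chr12:85473640-85473889, plus strand: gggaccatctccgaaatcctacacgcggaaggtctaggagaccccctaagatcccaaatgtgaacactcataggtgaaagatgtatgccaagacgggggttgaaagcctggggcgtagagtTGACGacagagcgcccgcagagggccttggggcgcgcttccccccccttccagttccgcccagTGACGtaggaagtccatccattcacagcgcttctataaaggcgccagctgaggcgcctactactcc
Fosb, chr7:19310046-19310295, minus strand: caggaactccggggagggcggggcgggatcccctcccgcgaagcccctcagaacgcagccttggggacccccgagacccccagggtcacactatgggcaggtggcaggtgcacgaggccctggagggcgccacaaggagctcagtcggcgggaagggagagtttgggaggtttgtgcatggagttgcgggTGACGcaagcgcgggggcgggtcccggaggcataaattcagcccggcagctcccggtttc
RefSeq windows were found for 13 of the 19 entries (15 windows, since Maff has 3), and TGACG on either strand stands in 10 of these 15 (66.7%). The share is 26.8% in the 11612 windows of tested genes and 17.8% in all 32851 windows of the table. The full palindrome TGACGTCA, which holds TGACG on both strands, stands in 3 of the 15 (20.0%), those of Btg2, Dusp1 and 1 window of Maff, against 2.7% for tested genes. TATAAA on either strand stands in 3 of the 15 (20.0%), against 6.09% for tested genes. The CArG box of serum response factor stands in 0 of the 15, the usual count for so few windows at the 1.15% of tested genes. It stands in 4 of the 39 windows (10.3%) of genes that rose under DRB. Only 250 bases were searched, so boxes farther from the start would be missed. Arc, Trib1 and Ier2 had no window. These letters are a description of the windows and show no binding.

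Egr4 is a zinc finger factor of the Egr family. It had 22.9, 24.3 and 21.8 FPKM with bicuculline under DRB, against 4.12, 5.90 and 3.47 FPKM unstimulated, and 1.29, 0.939 and 1.57 FPKM with bicuculline under triptolide, against 0.997, 0.674 and 0.789 FPKM unstimulated. The triptolide groups overlapped, and the difference was 1.85 ± 0.25 (limma adjusted p = 0.0114). Without triptolide unstimulated replicate 1 the adjusted p was 0.0504 and the call was lost.

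Egr1, the best known member of that family, had a higher level but a smaller difference. With bicuculline under DRB it had 63.4, 66.8 and 56.0 FPKM, against 25.8, 19.9 and 20.8 FPKM unstimulated, and under triptolide 6.25, 3.89 and 5.83 FPKM with bicuculline, against 4.26, 2.89 and 4.29 FPKM unstimulated. Its difference of 1.04 ± 0.25 missed the threshold (limma adjusted p = 0.688) and passed it with the block (adjusted p = 0.00228). Egr2 differed by 0.82 ± 0.18, with an adjusted p of 0.416 in limma and 0.0813 with the block. Egr3 had responses of 0.03 under DRB and 0.22 under triptolide. In the DRB experiment alone Egr1, Egr2 and Egr4 rose, and Egr3 did not pass the test.

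Nr4a1 is an orphan nuclear receptor induced within minutes of calcium entry. It had 61.9, 74.6 and 53.9 FPKM with bicuculline under DRB, against 10.3, 22.0 and 10.2 FPKM unstimulated. Under triptolide it had 5.57, 4.28 and 5.73 FPKM with bicuculline, against 4.57, 2.94 and 4.14 FPKM unstimulated, with overlapping groups. Its difference of 1.82 ± 0.37 is as large as that of Egr4, with an adjusted p of 0.268 in limma and 0.00314 with the block. Without DRB unstimulated replicate 2, the library at 22.0 FPKM, it was 2.17 and passed the limma test. Nr4a2 (0.91) and Nr4a3 (0.37) passed neither test of the difference, though both rose under DRB.

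Maff is a small Maf protein without a transactivation domain of its own. Its level was low in every group, at 3.70, 3.36 and 3.50 FPKM with bicuculline under DRB, against 0.521, 0.490 and 0.455 FPKM unstimulated. Under triptolide it lay at 0.455, 0.473 and 0.511 FPKM with bicuculline, against 0.211, 0.340 and 0.368 FPKM unstimulated. The replicates of each group lay close together, and the difference was 1.74 ± 0.15 (limma adjusted p = 0.000519). Maff reached an FPKM of 1 only with bicuculline under DRB, so it entered the test through that group alone. Ier2 (1.36 ± 0.19, adjusted p = 0.0134) and the antiproliferative factor Btg2 (1.24 ± 0.20, adjusted p = 0.0408) were also called by limma. Ier2 had 3.40 to 3.99 FPKM with bicuculline under DRB, against 0.858 to 1.19 FPKM unstimulated, and 0.281 to 0.485 FPKM with bicuculline under triptolide, against 0.189 to 0.322 FPKM unstimulated. With fewer than 3 other libraries at an FPKM of 1, Ier2 too passed the filter through bicuculline under DRB.

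The gene lists counted here and below were chosen with earlier results of these data known. Over all tested genes 0.138% had a larger response under DRB (0.261% with the block). Of the 21 immediate early transcription factors tested, 7 had a larger response under DRB (9 with the block) and 0 a smaller one, with a median difference of 0.91, beside -0.03 over all genes. In the single responses 14 of them rose under DRB and 0 under triptolide (3 with the block), where the median response was 0.34. Per1, the clock gene with cyclic AMP response elements in its promoter, is a member whose 2 responses were alike in size. It had 11.96, 19.4 and 10.7 FPKM with bicuculline under DRB, against 7.80, 13.1 and 8.09 FPKM unstimulated, and 5.79, 4.53 and 5.75 FPKM with bicuculline under triptolide, against 3.63, 3.31 and 3.52 FPKM unstimulated. The responses of Per1 were 0.50 and 0.55, both past the test with the block (adjusted p = 0.00933 and 0.0195), and the difference was -0.04 ± 0.31. Klf10, Crem and Btg1 had differences of -0.06, -0.06 and 0.19 and passed no test.

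The effector genes, whose proteins act at synapses, on chromatin or in signalling, had a median difference of 0.62. In the triptolide response 0 of them rose (4 with the block, where 0.34% of all tested genes rose). In the difference they gave 5 calls among 19 tested (9 with the block), beside 0.138% of all tested genes (0.261% with the block). Besides Arc these were Gadd45g, Gadd45b, Tiparp and Nfil3. Gadd45 proteins are stress-induced and take part in DNA repair and demethylation. Gadd45g had 35.1, 38.3 and 45.5 FPKM with bicuculline under DRB, against 3.22, 4.95 and 4.67 FPKM unstimulated. Its triptolide levels were 1.34, 0.903 and 1.26 FPKM with bicuculline, against 0.813, 0.538 and 0.533 FPKM unstimulated. Both pairs of groups were separate, and the difference was 2.52 ± 0.24 (limma adjusted p = 0.000858).

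Gadd45b had 7.62, 11.9 and 9.43 FPKM with bicuculline under DRB, against 0.919, 1.63 and 1.11 FPKM unstimulated, and 2.05, 1.57 and 2.62 FPKM with bicuculline under triptolide, against 1.40, 0.863 and 1.37 FPKM unstimulated. Its unstimulated levels under the 2 inhibitors overlapped. The difference of Gadd45b was 1.97 ± 0.30 (limma adjusted p = 0.0278). Tiparp, a mono-ADP-ribosyltransferase, differed by 1.42 ± 0.19 (adjusted p = 0.0114), and without triptolide bicuculline replicate 2 its limma adjusted p was 0.0525. At 27.11 kb it is the longest of the called genes. Nfil3, a basic leucine zipper repressor, differed by 1.29 ± 0.21 (limma adjusted p = 0.0479).

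With the block, 4 further effectors passed the test. Sik1, the salt-inducible kinase that restrains CREB coactivators, differed by 0.88 (block adjusted p = 0.0181), Rgs2, a regulator of G protein signalling, by 0.86 (block adjusted p = 0.00192), Rasl11a by 0.97 (block adjusted p = 0.0302) and the polo-like kinase Plk2 by 0.62 (block adjusted p = 0.0171). Plk2 had 35.2, 34.6 and 39.3 FPKM with bicuculline under DRB, against 17.4, 16.8 and 16.6 FPKM unstimulated, and 4.46, 3.58 and 5.47 FPKM with bicuculline under triptolide, against 3.10, 2.49 and 3.86 FPKM unstimulated. The triptolide responses of Plk2 were 0.46, 0.45 and 0.45 in the 3 cultures, although the levels of the cultures overlapped between groups. Cyr61, coding for a secreted matricellular protein, had the highest triptolide response of the effector list (1.08) and a DRB response of 2.17, with a difference of 1.10 ± 0.53 (limma adjusted p = 1.0, and 0.574 with the block). Its unstimulated levels under DRB were 26.8, 6.89 and 21.5 FPKM, and replicate 2 was lowest here.

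Some familiar activity genes had no called difference by either fit. Bdnf (0.35), Ppp1r15a (0.23), Inhba (0.10), Plk3 (-0.0029), Nrn1 (-0.02), Nptx2 (-0.07) and Homer1 (-0.16) are examples. Homer1, which spans 101.4 kb and codes for a postsynaptic scaffold, had 38.2, 43.5 and 30.6 FPKM with bicuculline under DRB, against 36.3, 41.4 and 34.4 FPKM unstimulated. Under triptolide it had 32.6, 31.9 and 33.2 FPKM with bicuculline, against 30.6, 29.8 and 27.4 FPKM unstimulated, which did not overlap, with a response of 0.15 ± 0.11.

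**Figure D3:**
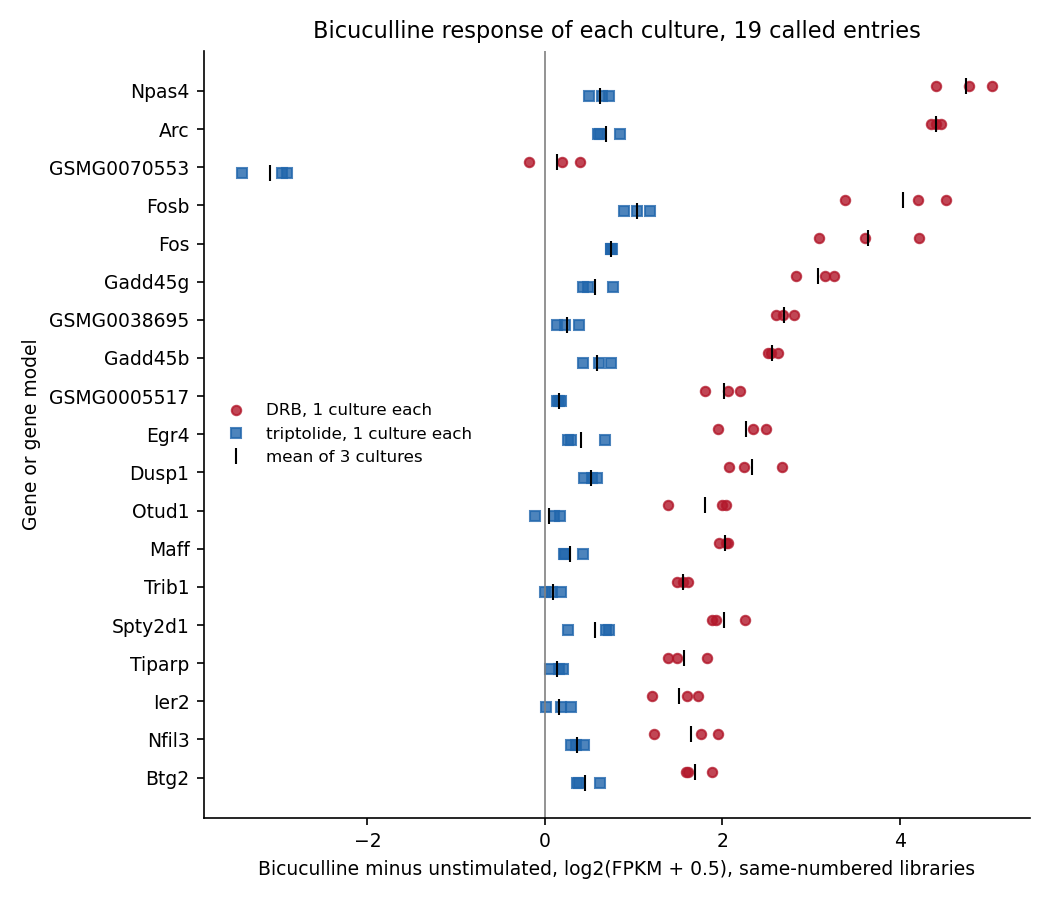
Bicuculline response of each culture for the 19 called entries, as the difference of same-numbered libraries in log2(FPKM + 0.5). Red circles are the 3 cultures under DRB, blue squares the 3 under triptolide and black ticks their means. The 2 sets do not overlap in any entry, and Fos has blue squares at 0.74 to 0.75.

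In the feedback genes of ERK and MAP kinase signalling, Dusp1 and Trib1 were called among 18 tested, and Errfi1, an inhibitor of EGF receptor kinases, joined them with the block (0.75, block adjusted p = 0.0197). Over all tested genes 0.138% had a larger response under DRB (0.261% with the block). Dusp1, a nuclear phosphatase of MAP kinases, had 10.5, 14.2 and 12.8 FPKM with bicuculline under DRB, against 2.10, 1.80 and 2.32 FPKM unstimulated. With bicuculline under triptolide it had 0.854, 0.606 and 0.964 FPKM, against 0.435, 0.318 and 0.477 FPKM unstimulated. Neither pair overlapped, and Dusp1 differed by 1.81 ± 0.20 (limma adjusted p = 0.00284). Its promoter window is shown because it holds the full palindrome as well as a single core.
Dusp1, chr17:26508473-26508722, minus strand: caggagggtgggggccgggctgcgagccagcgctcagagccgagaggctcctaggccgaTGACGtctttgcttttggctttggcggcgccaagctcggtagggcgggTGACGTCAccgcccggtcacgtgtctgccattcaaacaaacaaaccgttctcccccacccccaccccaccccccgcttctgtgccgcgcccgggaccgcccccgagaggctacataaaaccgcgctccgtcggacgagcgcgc
Trib1, a pseudokinase that acts on MAP kinase kinases, had 4.25, 3.97 and 4.04 FPKM with bicuculline under DRB, against 1.12, 1.09 and 0.984 FPKM unstimulated. With bicuculline under triptolide Trib1 had 0.621, 0.435 and 0.509 FPKM, against 0.558, 0.435 and 0.387 FPKM unstimulated. It differed by 1.46 ± 0.15 (limma adjusted p = 0.00149) with a triptolide response of 0.09. Outside bicuculline under DRB, Trib1 reached an FPKM of 1 only at the 1.12 and 1.09 FPKM above, so it passed the filter through that group. The median of the feedback list was 0.07, and members such as Spry2 (0.11), Spry4 (0.03) and Dusp4 (-0.09) did not pass either fit.

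Called genes outside these lists were Otud1 and Spty2d1. Otud1, a deubiquitinase gene with a single exon, had 2.88, 4.96 and 5.12 FPKM with bicuculline under DRB, against 0.793, 0.866 and 0.870 FPKM unstimulated. Under triptolide it had 0.374, 0.127 and 0.247 FPKM with bicuculline, against 0.280, 0.179 and 0.197 FPKM unstimulated, with overlapping groups and 1 culture below 0. It differed by 1.76 ± 0.27 (limma adjusted p = 0.0278). Like Maff, Otud1 reached an FPKM of 1 only with bicuculline under DRB and entered the test through that group alone. Spty2d1, a histone chaperone gene, had 7.20, 5.91 and 5.87 FPKM with bicuculline under DRB, against 1.11, 1.19 and 1.23 FPKM unstimulated. In triptolide it had 2.36, 1.59 and 2.18 FPKM with bicuculline, against 1.27, 1.24 and 1.12 FPKM unstimulated. Its unstimulated levels were alike under both inhibitors, and it differed by 1.46 ± 0.18 (limma adjusted p = 0.00546). With the block Pim3, a serine and threonine kinase gene (1.26), Ccno (1.27), Cmtr2, a cap methyltransferase gene (1.04), Tob1 (0.83), Ccnl1 (0.82) and Irf2bp2 (0.79) also passed.

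The other 3 called entries have no symbol and were singled out after their values were seen. Entry GSMG0038695 (chr8:84972736-84978719) covers, by GENCODE M21 on the same build, Prdx2 and Junb (a Jun family gene whose protein pairs with Fos), and the table does not say which of them its fragments come from. It had 19.6, 23.9 and 18.1 FPKM with bicuculline under DRB, against 2.38, 3.52 and 2.404 FPKM unstimulated. With bicuculline under triptolide the entry had 0.764, 0.467 and 0.881 FPKM, against 0.582, 0.382 and 0.557 FPKM unstimulated. It differed by 2.45 ± 0.24 (limma adjusted p = 0.00121).

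Entry GSMG0005517 (chr11:75172475-75177633) covers the activity-regulated miRNA pair Mir212 and Mir132 with the noncoding 1700016P03Rik, and Ovca2 on the other strand. It had 2.33, 3.48 and 4.01 FPKM with bicuculline under DRB, against 0.311, 0.453 and 0.482 FPKM unstimulated. Under triptolide it had 0.860, 0.508 and 0.698 FPKM with bicuculline, against 0.700, 0.407 and 0.591 FPKM unstimulated. It differed by 1.86 ± 0.26 (limma adjusted p = 0.0148). This entry too reached an FPKM of 1 only with bicuculline under DRB and entered the test through that group alone. The fragments belong to the long polyadenylated transcripts of the region, and the mature miRNAs were not measured. Their sequences (RefSeq, GRCm38.p6) are shown because both share 1 seed, bases 2 to 8, in capitals.
mmu-miR-212-3p, chr11:75173443-75173464: uAACAGUCuccagucacggcca
mmu-miR-132-3p, chr11:75173723-75173744: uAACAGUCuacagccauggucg

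Entry GSMG0070553 is the exception to the pattern. It is a model of 43 bp (chr10:52214021-52214063) that was listed at 0 FPKM in all 3 triptolide libraries with bicuculline and at 3.39, 4.85 and 3.26 FPKM in the unstimulated ones, which at these depths is 10.7 to 16.6 fragments if all lie in the span. Under DRB it lay at 0.155 FPKM or below in every library. Its difference of 3.23 ± 0.22 (limma adjusted p = 0.000134) therefore rests on triptolide alone. Of the 12 libraries, only the unstimulated ones under triptolide reached an FPKM of 1, so it entered the test through that group alone. In nuclear RNA under triptolide it lay at 4.28, 4.795 and 1.24 FPKM with bicuculline and at 0 in the 3 unstimulated libraries, the opposite order.

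Not every call was equally firm. Leaving out each of the 12 libraries in turn kept Npas4, Arc, Fosb, Fos, Gadd45g, Dusp1, Maff, Trib1, Spty2d1, GSMG0038695 and GSMG0070553 past the limma threshold in 12 of 12 fits. Of these, Fos and Fosb were lost when both DRB libraries of number 3 were left out together. The call of GSMG0070553 was lost when all 27 libraries entered the fit (3.23, limma adjusted p = 0.492), and with cytosolic RNA in place of whole-cell RNA its difference was 0.32 (limma adjusted p = 0.999). Gadd45b passed in 4 of 12 and was lost without DRB bicuculline replicate 2 or 3, DRB unstimulated replicate 1 or 3, triptolide bicuculline replicate 1 or 2 or triptolide unstimulated replicate 1 or 3, with differences of 1.82 to 2.14 over the 12 fits. Ier2 was lost without DRB bicuculline replicate 3, DRB unstimulated replicate 3, triptolide bicuculline replicate 2 or triptolide unstimulated replicate 1 or 3 (1.28 to 1.45). GSMG0005517 was lost without DRB unstimulated replicate 1, triptolide bicuculline replicate 2 or triptolide unstimulated replicate 1 or 3 (1.72 to 2.06). Otud1 passed only without DRB bicuculline replicate 1 or triptolide bicuculline replicate 1 (1.63 to 1.99), Nfil3 only without DRB unstimulated replicate 2 (1.12 to 1.48) and Btg2 only without triptolide bicuculline replicate 3 (1.10 to 1.33). All these genes passed with the block. Just inside the threshold lay Btg2 and Nfil3 (limma adjusted p = 0.0408 and 0.0479), and just outside it Cmtr2 (0.0740), with the next 4 at 0.268.

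Unstimulated levels differed between the experiments as well. In a fit over all 27 libraries, 13 of the 19 entries were higher in unstimulated cells under DRB than under triptolide past the test, as were 49.9% of all tested genes, and 2 were lower. The median was 0.96 over the 19 and 0.26 over all genes. Among the 13 the values were highest for Gadd45g (2.07), Egr4 (1.90), Fos (1.74) and Npas4 (1.69). The 2 lower ones were GSMG0070553 (-3.04) and Btg2 (-0.39), while Gadd45b (0.0015) and Spty2d1 (-0.03) did not pass the test. Because 0.5 is added before the logarithm, low triptolide levels pull the triptolide response toward 0. With 0.1 added in place of 0.5 the difference of Fosb was 2.76 and that of Arc 4.04, and 11 genes passed the limma test, with Fosb, Gadd45b, Egr4, Dusp1, Otud1, Ier2, Nfil3 and Btg2 lost. Of these 8, Gadd45b (2.16), Otud1 (2.10), Ier2 (1.51), Btg2 (1.44) and Nfil3 (1.30) had a larger difference with 0.1 than with 0.5, so their calls were lost without a smaller fold.

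All 42 genes that rose under DRB had positive responses under triptolide. Their median response was 1.53 under DRB and 0.39 under triptolide, and in 2 of the 42 the DRB response was no more than 2 times the triptolide one. Of all tested genes, 61.75% had a positive triptolide response and the median was 0.04. With the block, 67 genes rose under DRB (0.485%) and 47 under triptolide, and 12 rose in both, 17.9% of the DRB set and 25.5% of the triptolide set. Among the genes called under DRB but not in the difference were the immediate early genes Egr2, Nr4a3, Plk2 and Atf3, the MAP kinase phosphatase gene Dusp6 (0.49 ± 0.17) and the chaperone gene Dnajb1 (0.30 ± 0.11).

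The other measured conditions of the series show how the 19 behaved beyond these 12 libraries. BDNF under DRB, which shares its unstimulated libraries with bicuculline under DRB, raised 17 of the 19 in the 27-library fit (0.919% of tested genes), with a median response of 2.96. Arc stood at 6.43 with BDNF and 4.404 with bicuculline, Ier2 at 3.38 and 1.51, and Otud1 at 0.60 and 1.81. Bicuculline in nuclear RNA under triptolide raised 2 of the 19 (0.652% of tested genes), Fosb (1.18) and GSMG0070553 (2.82), with a median of 0.29. In cytosolic RNA it raised 2 of the 19 (2.64% of tested genes), Fosb (0.90) and Spty2d1 (0.54), with a median of 0.45. Npas4 stood at 0.11 in nuclear RNA and 0.84 in cytosolic RNA. The fits that follow swap only the triptolide libraries and keep the DRB libraries on which the 19 were called. The median response of the 19 was 2.02 under DRB and 0.41 under triptolide. The calls kept are therefore not separate support. With nuclear RNA in place of whole-cell RNA 18 genes were called in the difference, all larger under DRB. Of the 19, 16 were kept, and Tiparp, Nfil3 and GSMG0070553 were lost. With cytosolic RNA 19 were called, 18 larger and 1 smaller. Again 16 of the 19 were kept, and Nfil3, Btg2 and GSMG0070553 were lost.

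**Figure D4:**
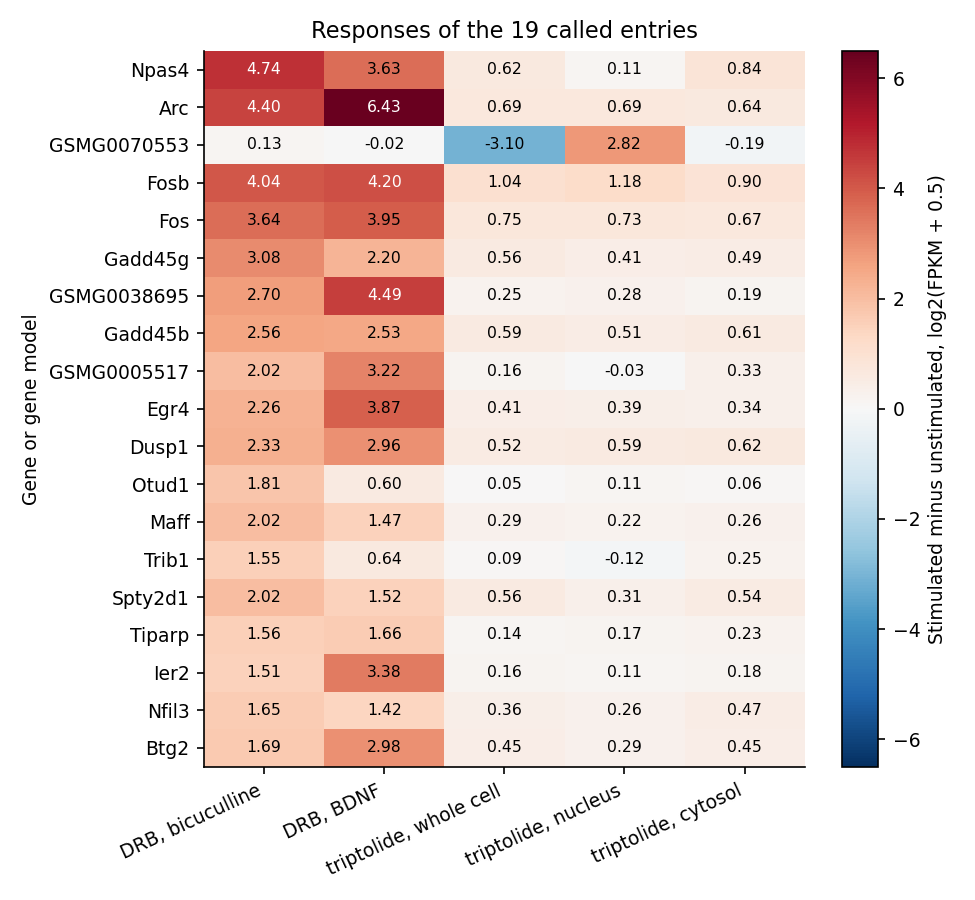
Log2 responses of the 19 called entries in 5 conditions from the 27-library fit, with bicuculline and BDNF under DRB at the left and bicuculline in whole-cell, nuclear and cytosolic RNA under triptolide at the right. Colour and printed number give the response. The columns under DRB hold values up to 6.43 (Arc with BDNF), and the columns under triptolide hold 1.18 or less except for GSMG0070553 in nuclear RNA.

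Gene span, the distance from start to end in the table, was short in the called genes. The 16 with a symbol span 1.806 to 27.11 kb with a median of 3.892 kb, beside 25.69 kb for all tested genes with a symbol. Their largest exon number in GENCODE has a median of 3.5, beside 9 over 11540 tested genes. By span, 10 of the 3113 tested entries under 5 kb were called (0.321%), 8 of the 3821 from 5 to 20 kb (0.209%), 1 of the 3189 from 20 to 50 kb (0.0314%) and 0 in the 3 bins above, which hold 1776, 1093 and 822 entries. In the fit without the block the genes that rose under DRB gave 21, 17 and 4 calls in these bins and 0 above 50 kb, with Atf3 (47.74 kb) as the longest. With the block, in bins that end at 5, 20, 50, 100 and 200 kb and a last one above, 31, 29, 5, 0, 1 and 1 genes rose under DRB and 9, 14, 15, 5, 3 and 1 under triptolide. The 2 long ones under DRB, named after their values were seen, were Tob2, whose model in the table spans 170.4 kb (0.68, block adjusted p = 0.018), and the adenylyl cyclase gene Adcy8 (223.3 kb, block adjusted p = 0.047, log2 response 0.36). Of the 40 immediate early genes of both lists, 11 of the 31 under 20 kb were called in the difference (17 with the block) with a median of 0.91, and 1 of the 9 at or above 20 kb (1 with the block) with a median of 0.35.

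Over all tested genes the difference also declined with span. The median difference was 0.03 under 5 kb, -0.01 from 5 to 20 kb, -0.04 from 20 to 50 kb, -0.08 from 50 to 100 kb, -0.10 from 100 to 200 kb and -0.10 at 200 kb and over. Spearman's rho between span and difference was -0.327 across 13814 genes, which share the same 12 libraries and are not independent. With the DRB response alone it was -0.213, and with the triptolide response 0.202. The trend was not shared by the DRB cultures, whose own values were -0.0507, 0.175 and -0.342 in cultures 1 to 3, whereas the triptolide cultures gave 0.180, 0.131 and 0.130. Without DRB bicuculline replicate 3 the rho of the difference was -0.0721, and without both DRB libraries of number 3 it was -0.131. The trend across all genes thus rests mainly on that culture. Without both libraries 9 genes were still called, among them Npas4, Arc, Gadd45g, Dusp1, Maff, Trib1 and Spty2d1. Fos (2.90, limma adjusted p = 0.113), Fosb (2.92, 0.0928), Egr4 (1.74, 0.0905) and Tiparp (1.51, 0.0522) were lost. Gadd45b, Otud1, Ier2, Nfil3, Btg2 and GSMG0005517 were lost as well.

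**Figure D5:**
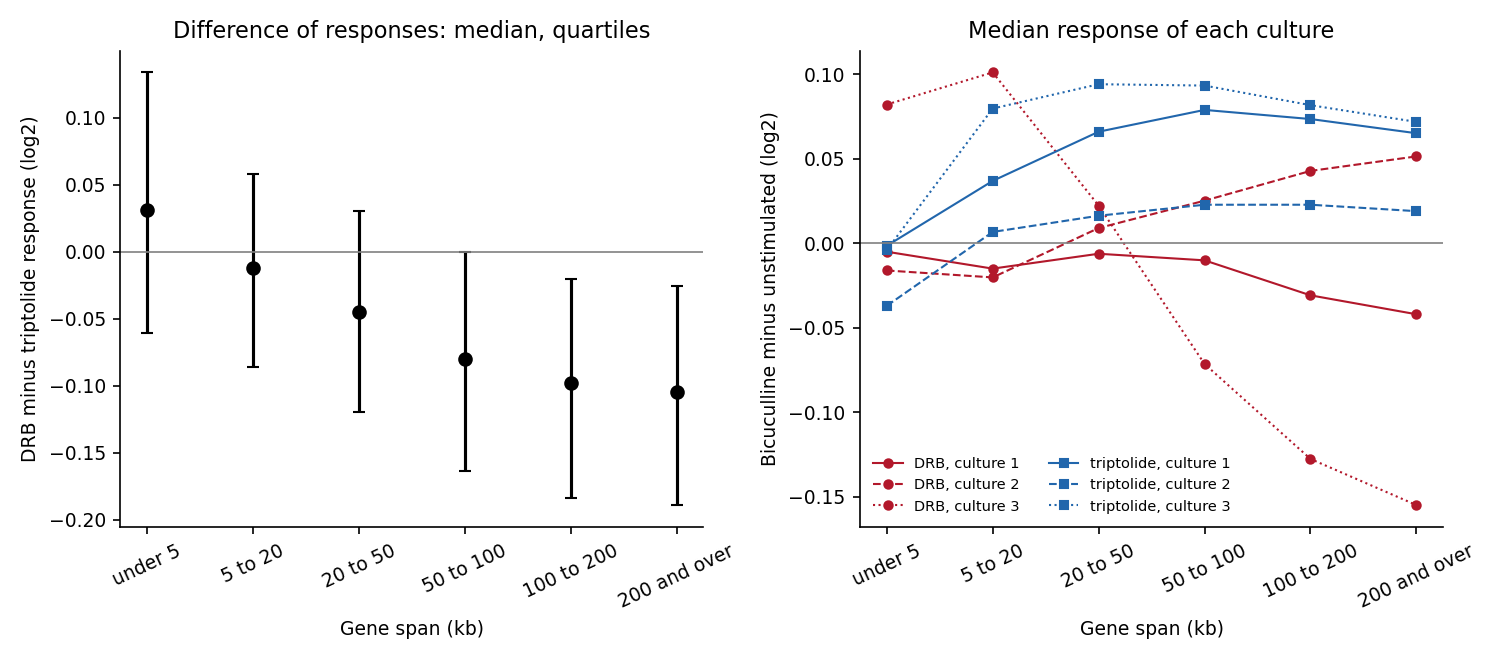
Left, the median difference of responses with its quartiles in 6 bins of gene span, falling from 0.03 under 5 kb to -0.10 at 200 kb and over. Right, the median bicuculline response of each culture in the same bins, with red circles for DRB and blue squares for triptolide. Culture 3 under DRB falls to -0.16 in the longest genes while culture 2 lies at 0.05.

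No gene with a symbol had a called smaller response under DRB in the fit without the block. With the block, Synpo, which codes for the actin-associated protein of the spine apparatus, passed at -0.53 (block adjusted p = 0.0206). Synpo had 16.7, 17.3 and 15.0 FPKM with bicuculline under DRB, against 16.8, 16.1 and 14.8 FPKM unstimulated. With bicuculline under triptolide it had 9.48, 7.32 and 9.32 FPKM, against 6.27, 4.73 and 6.16 FPKM unstimulated. The triptolide groups of Synpo were separate, its 3 cultures responded by 0.56, 0.58 and 0.56, and with the block the triptolide response passed the test (adjusted p = 0.00857). The other entry with a smaller response in that fit is a model of 25 bp inside Ghrl (GSMG0057862, -0.93).

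Among genes with a symbol and a mean of at least 5 FPKM, the 10 with the lowest unadjusted p for a smaller response were Fam160a2, Klhl18, Sh3bp4, Dusp8, Cobl, Rtn4r, Vps18, Bcar1, Cacnb1 and Copb1, with differences of -0.24 to -0.41 and a limma adjusted p of 1.0. In these genes the DRB response was near 0 and the triptolide response positive. Dusp8, a phosphatase of JNK and p38 kinases, had 47.4, 48.1 and 44.8 FPKM with bicuculline under DRB, against 47.8, 44.4 and 45.1 FPKM unstimulated, and 26.0, 24.1 and 25.8 FPKM with bicuculline under triptolide, against 21.1, 19.8 and 18.2 FPKM unstimulated. Its triptolide response of 0.35 passed with the block (adjusted p = 0.0479). Rtn4r, the Nogo receptor gene, had responses of -0.01 and 0.36, and Cobl, coding for an actin nucleator, had -0.07 and 0.34. Culture responses under DRB lay below all those under triptolide in 1575 genes, 11.4% of those tested. In 315 genes (2.28%) every DRB culture was below 0 and every triptolide culture above it, and 115 (0.832%) had the reverse.

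Genes of the calcium route to the nucleus, from calmodulin and CaM kinases to CREB and MEF2, were not called in either direction (31 tested). Their median difference was -0.15, with 2 of the 31 above 0, beside 5485 of 13814 over all tested genes. The list had a median span of 62.52 kb, and all tested entries of 50 to 100 kb had a median difference of -0.08. In triptolide 28 of the 31 had positive responses (median 0.12), with Mkl1 (0.37) the highest, and none passed the test. The machinery that the inhibitors act on was also without calls among 33 tested genes, with a median difference of -0.09. Polr2a, the largest subunit of RNA polymerase II, had -0.31 and Supt5, a subunit of the pausing factor DSIF, -0.25, at an adjusted p of 1.0 in limma. The delayed activity genes (22 tested, median -0.02) and the CLK kinases and SR proteins (20 tested, median 0.05) had 0 calls. The glutamatergic (25 tested, median -0.14) and GABAergic (18 tested, median -0.11) synapse lists had 0 calls as well. Their median spans were 324.4 and 89.55 kb, and all tested entries of 200 kb and over had a median difference of -0.10. The part of span in the medians of these lists was not tested. With 0.138% of all tested genes called, 0 calls is the usual count for lists of this size and says little about them.

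Ribosomal, mitochondrial, small nucleolar host and heat shock genes gave no calls in the difference, the usual count for such lists where 0.138% of all tested genes were called. Of 42 ribosomal protein genes 38 had a positive difference (median 0.10), with a median triptolide response of -0.07. Over all tested genes 5485 of 13814 had a positive difference. The median span was 3.39 kb for ribosomal protein genes and 3.014 kb for hosts of small nucleolar RNAs. All tested entries under 5 kb had a median difference of 0.03, and the part of span in these lists was not tested. The 13 mitochondrially encoded RNAs had a median difference of 0.28, which was 0.09 after quantile normalization, and 11 of 12 hosts of small nucleolar RNAs were positive (median 0.15). Nuclear-encoded oxidative phosphorylation genes (32 tested, median 0.03) and heat shock genes (12 tested, median -0.08) lay near the median of all genes. Mitochondrially encoded RNA held 5.25 to 5.96% of all FPKM with bicuculline and 5.06 to 5.74% unstimulated under DRB, against 8.72 to 9.66% with bicuculline and 9.20 to 12.5% unstimulated under triptolide. Its part in these medians was not tested.

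Markers of cell types gave 0 calls in the difference, the usual count for such short lists where 0.138% of all tested genes were called. Their medians were -0.12 for neurons (14 tested), -0.01 for astrocytes (11), -0.26 for the oligodendrocyte lineage (11), -0.06 for microglia (7), -0.06 for progenitors (9) and 0.01 for vascular cells (4), the astrocyte value being 0.02 after quantile normalization. The oligodendrocyte list summed to 211 to 250 FPKM with bicuculline and 214 to 289 FPKM unstimulated under DRB, against 89.5 to 120 FPKM with bicuculline and 90.5 to 120 FPKM unstimulated under triptolide. The 11 microglia markers summed to 11.2 to 12.35 FPKM with bicuculline and 10.67 to 13.08 FPKM unstimulated under DRB. Under triptolide they summed to 10.38 to 29.16 FPKM with bicuculline and 11.21 to 22.8 FPKM unstimulated. Of this list, P2ry12 and Tmem119 lay under 0.1 FPKM in every group. Progenitor markers summed to 74.1 to 217 FPKM with bicuculline and 79.4 to 249 FPKM unstimulated under DRB, against 105 to 127 FPKM with bicuculline and 112 to 151 FPKM unstimulated under triptolide. The part of these levels in the called differences was not tested.

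Depth, estimated from the steps between low values, was 83408692 to 133303435 fragments in the DRB libraries and 70401250 to 87474077 in the triptolide ones, at which 10 fragments on 2 kb make 0.0375 to 0.0710 FPKM. The median SD of log2 values over genes was 0.152 with bicuculline and 0.108 unstimulated under DRB, against 0.1004 with bicuculline and 0.106 unstimulated under triptolide. In the 6 DRB libraries a principal component analysis put 56.9% of the variance on its first axis, where both libraries of number 2 lay at 23.4 or above and the other 4 at -7.28 or below. Without those 2 libraries 19 genes were called in the difference, 15 of them among the 19 above. Without both DRB libraries of number 3 the count was 9, all among the 19.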

How the data were processed

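Gene levels came as FPKM that the authors computed and deposited, 1 value per gene model and library, on FASTDB models of mm10. Per the labels' protocols, libraries were made with a stranded mRNA kit (TruSeq) from total RNA. In the submitters' processing notes the build is mm10, and the tools are STAR 2.4.0, SAMtools, Picard and FastQC. How fragments were counted (program, strand, reads with several matches) is not given in the sources used here, so reads of overlapping genes and near copies cannot be assigned with certainty. FPKM are not counts and no count model was run. Depth was estimated from the steps between low values, and whole reads were not recovered.

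Values were used as log2(FPKM + 0.5), so fold changes of low genes are understated. limma 3.58.1 in R 4.3.3 fitted 4 group means to 12 libraries with trend and robust moderation, and p-values were adjusted over all 13814 genes (Benjamini-Hochberg), with calls at 0.05. Errors of log2 values are the moderated SE of limma, with 3 libraries a group. They come from 1 residual variance per gene over the 12 libraries and do not show the spread of a single group. Nothing in the labels says that the libraries came from separate animals, so p-values measure the spread between these libraries. Same-numbered libraries of an experiment deviated together from their group means (r = 0.667 to 0.834 under DRB and 0.476 to 0.598 under triptolide, while different numbers gave 0.0679 or less), so a replicate block was fitted beside it. On simulated data of 13814 genes the fit recovered 20, 76, 90 and 98% of 50 differences each of 0.5, 1, 2 and 3 (log2), with 6 false among 148 calls. The simulated noise was independent between libraries, unlike that of same-numbered libraries here, so these rates need not hold for the real data. Genes were named by rule: every called gene with a symbol, genes called with the block, the 10 lowest p-values in each direction among uncalled genes above 5 FPKM, and list members. The members and lists were chosen with earlier results of these data known. Of the listed names, Jun, Jund and Clk2 are among those that no entry of the table carries. GENCODE M21 gave overlaps and exon numbers, and RefSeq (GRCm38.p6) the sequences. Summaries and figures used Python 3.11.15, pandas 2.3.3 and matplotlib 3.10.9.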

Additional observations from a re-analysis of the deposited data

Results flagged for a closer look

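The bicuculline response differed between DRB and triptolide, by the limma test of the difference itself, in 19 entries. On the log2 scale the differences (DRB minus triptolide) were 4.12 for Npas4, 3.72 for Arc, 3.23 for GSMG0070553, 3.001 for Fosb, 2.89 for Fos, 2.52 for Gadd45g and 2.45 for GSMG0038695. They were 1.97 for Gadd45b, 1.86 for GSMG0005517, 1.85 for Egr4, 1.81 for Dusp1, 1.76 for Otud1 and 1.74 for Maff. Trib1 and Spty2d1 stood at 1.46 each, Tiparp at 1.42, Ier2 at 1.36, Nfil3 at 1.29 and Btg2 at 1.24. The 43 bp model GSMG0070553 stands apart, since its value comes from 0 FPKM in 3 of 3 triptolide bicuculline libraries and its order was the opposite in nuclear RNA.

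In 4 named genes every culture under DRB moved one way and every culture under triptolide the other, and this pattern was not tested. Fam160a2 (-0.36), Klhl18 (-0.33) and Copb1 (-0.24), a coatomer subunit gene, went down in the DRB cultures by 0.06 or less and up in the triptolide cultures. Snora7a (0.39), a small nucleolar RNA gene inside Rpl32 whose reads may be shared with it, went the other way. Over all tested genes, 315 (2.28%) were down in all DRB cultures and up in all triptolide cultures, and 115 (0.832%) the reverse.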

How the results depend on the processing

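The count of 19 genes with a called difference was 11 with 0.1 added before the logarithm, 12 with a filter at an FPKM of 5, 38 with the replicate block, which kept all 19, and 43 with the block and median-ratio scaling. It was 12 to 19 when 1 library was left out (12 without triptolide bicuculline replicate 2 or triptolide unstimulated replicate 1), and 9 without both DRB libraries of number 3. Leaving out both libraries of a number was chosen after seeing the data. Without a filter it was 23, of which 4 were smaller responses, and 13 of the 19 were kept. Quantile normalization gave 15, with Gadd45b, Nfil3, Btg2 and GSMG0005517 lost. Other settings gave 18 to 28. The count of the DRB response, 42, was 27 with the FPKM filter at 5, 69 with the replicate block, 78 with the block and median-ratio scaling, 33 to 42 with 1 library left out and 26 without both DRB libraries of number 3. The count of the triptolide response, 1, was 14 without a filter, 0 with the filter at 5 (859 genes at an unadjusted p under 0.05 in limma), 26 with all 27 libraries in the fit, 58 with the replicate block, 60 with the block and median-ratio scaling, 1 to 2 with 1 library left out and 3 without both DRB libraries of number 2. Spearman's rho between span and difference, -0.327, was -0.201 without a filter, -0.357 to -0.0721 with 1 library left out and -0.131 without both DRB libraries of number 3. Over 54 named entries and 26 settings, 1243 values kept their direction and side of the threshold, 90 lost the call and 54 gained one. One value changed sign, GSMG0070553 at -2.69 with nuclear RNA (limma adjusted p = 0.0677). The cause of these changes was not tested. In the simulated data, with independent noise and 3 libraries a group, 20% of log2 differences of 0.5 were recovered.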
